A study of Mus musculus with 6 samples.

Results

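The imprinted Dlk1-Meg3 cluster of mouse chromosome 12 was followed in AtT-20 cells, a tumour line from the ACTH-producing corticotrophs of the mouse pituitary, after knockdown of Dnmt1. Its members were taken as Dlk1, Meg3 (also known as Gtl2), Rian, Mirg and Dio3, by every probe set that the platform annotation assigned to such a symbol and to no other gene. That left 4 of the 5 genes, among 18193 genes on the array, and 19 of the 45037 probe sets that are not array controls: 2 for Dlk1, 11 for Meg3, 4 for Rian and 2 for Mirg. For Dio3 alone the annotation used here named 0 probe sets, so Dio3 itself has no value below.

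The cells received 20 nM siRNA repeatedly over 8 days, either siDNMT1, directed at Dnmt1, or siNT, a non-targeting control. Total RNA was hybridised to 1 Affymetrix mouse array per sample. The whole procedure was run 3 times independently, giving 3 siDNMT1 and 3 siNT arrays that share the repeat numbers 1 to 3. All 6 samples come from 1 established tumour line, all were transfected with an siRNA, and the labels give no allele or strain information, so the parental origin of a transcript was not measured.

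In mouse, this cluster is controlled by a region between Dlk1 and Meg3 that is methylated on the paternal chromosome. Dlk1, the retrotransposon-derived Rtl1 and Dio3 are read mainly from the paternal copy, and the long non-coding RNAs Meg3, Rian and Mirg from the maternal copy. Once the embryo has formed, the paternal Meg3 promoter also carries methylation, and Dnmt1 is the enzyme that copies such marks to newly replicated DNA. In human pituitary tumours of the non-functioning type, loss of MEG3 RNA has been described. The comparison of siDNMT1 with siNT asks whether transcripts of this methylation-controlled cluster change when Dnmt1 is reduced.

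The promoter windows of Dlk1, read from the paternal copy, and of Meg3, read from the maternal copy, are shown because Dnmt1 acts on the dinucleotide CG, which is in capitals. Both are RefSeq windows on GRCm38.p6, plus strand, from 250 bases before to 50 bases after a transcript start, at chr12:109452573-109452872 for Dlk1 and at chr12:109540746-109541045 for Meg3.
Dlk1: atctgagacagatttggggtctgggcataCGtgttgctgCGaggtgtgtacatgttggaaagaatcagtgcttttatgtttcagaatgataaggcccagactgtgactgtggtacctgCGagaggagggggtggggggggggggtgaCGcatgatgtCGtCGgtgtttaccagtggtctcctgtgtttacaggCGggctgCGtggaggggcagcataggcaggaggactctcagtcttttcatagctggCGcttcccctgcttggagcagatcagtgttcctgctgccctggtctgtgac
Meg3: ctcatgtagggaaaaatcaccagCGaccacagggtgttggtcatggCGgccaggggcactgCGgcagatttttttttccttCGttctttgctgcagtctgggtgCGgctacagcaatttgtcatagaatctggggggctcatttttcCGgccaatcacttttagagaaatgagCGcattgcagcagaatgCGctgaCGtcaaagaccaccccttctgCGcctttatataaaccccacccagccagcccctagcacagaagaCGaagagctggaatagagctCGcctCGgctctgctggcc
The Dlk1 window holds 9 CG and the Meg3 window 13, against a median of 7 (quartiles 3 and 20) over 32851 windows of 300 bases. At least 1 CG, which reads the same on both strands, occurs in 94.57% of those windows. The window of Mirg holds 10 CG, that of Rian 0 and that of Dio3 25, while a second Meg3 start, further into the gene, has 1. CG content of a window says nothing of its methylation in these cells, which the arrays do not measure.

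Signals are linear intensities that were scaled so that every array had the same median log2 value. The scale factors were 1.25, 0.698 and 1.11 for siDNMT1 repeats 1 to 3 and 1.28, 0.763 and 1.06 for siNT repeats 1 to 3, so repeat 2 was brighter as deposited in both groups. Differences are siDNMT1 minus siNT on the scale of log2(scaled signal + 5.29), where 5.29 is the 20th percentile of all deposited values. That pseudocount understates changes of dim probe sets. Probe sets with a mean scaled signal of at least 16.8, the 40th percentile, were tested with limma, and p-values were adjusted by Benjamini-Hochberg over all 27022 of them. With 3 arrays a group, the small number of arrays limits the precision of all values below.

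Dnmt1 was lower in every repeat. On its brightest probe set the siDNMT1 arrays had scaled signals of 214, 142 and 301 in repeats 1 to 3, and the siNT arrays 541, 701 and 619. The siDNMT1 arrays thus held 39.6%, 20.2% and 48.6% of the signal of their siNT partners, and the groups did not overlap. The difference of -1.54 (SE 0.24) had a limma adjusted p of 0.151, and of 0.0211 with the repeat number as a block. An exact permutation test gave 0.1, the smallest two-sided p that 3 arrays against 3 allow.

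No probe set of the cluster changed past the threshold of 0.05. Of the 19, 13 were bright enough to be tested: 1 of Dlk1, 7 of Meg3, 3 of Rian and 2 of Mirg. Called by limma were 0 of 13, against a background of 0% of all tested probe sets without the block, and 0 of 13 against 0.0851% (23 probe sets) with it. At an unadjusted limma p under 0.05 stood 1 of 13, a Mirg probe set, against 3.79% of all tested probe sets, and the same 1 of 13 with the block, against 7.83%. The mean difference was above 0 for 10 of 13, against 40.8% over the array, and the median of the 13 was 0.21 against -0.06. With trimmed mean scaling, quantile normalization or no scaling, 12 of 13 were above 0 each time, against 50.3%, 48.9% and 45.2% over the array. The added ones were Meg3 1426758_s_at and 1429256_at, both at -0.01 in the main fit and at 0.0073 to 0.046 under these scalings. All scalings use the same arrays, and 7 of the 13 probe sets are of Meg3. The repeats were unequal: above 0 were 6, 7 and 11 of the 13 in repeats 1, 2 and 3, with medians of -0.01, 0.09 and 0.36. The medians over all tested probe sets in the same repeats were 0.02, -0.11 and -0.07.

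**Figure D1:**
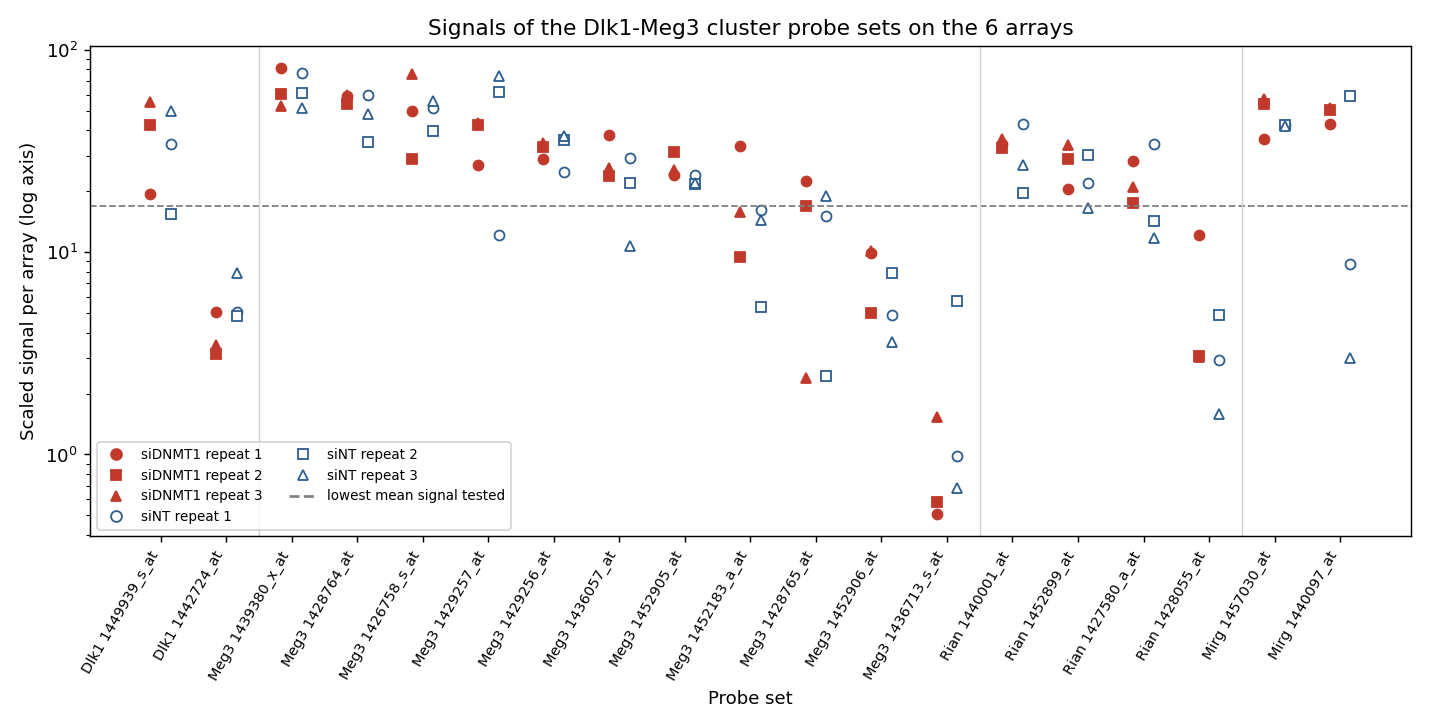
Scaled signal (log axis) of the 19 cluster probe sets on each array, siDNMT1 as filled red and siNT as open blue symbols, with a symbol shape for each repeat; the dashed line marks 16.8, the lowest mean signal that was tested. The groups overlap on all probe sets except Meg3 1452905_at, and 6 probe sets have mean signals below the line.

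All members were dim. Their mean signals over the 6 arrays ran from 1.67 to 63.9, and the highest mean percentile of signal within an array was 69.9, for a Meg3 probe set. The signal of a probe set depends on its probes as well as on its transcript, and the deposited table has no detection calls, so these values do not decide which members are transcribed in AtT-20 cells. In RNA from whole cultures, fewer cells with a transcript and less of it per cell cannot be told apart either. The dimness also bears on the spread. Over the 10928 tested probe sets with mean signals between 21.2 and 63.9, the range of the tested members, the SD of the 3 repeat differences had a median of 0.43, against 0.32 over all tested probe sets. Of those 10928, 46.8% had a mean difference above 0, and their median size of difference was 0.21.

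Dlk1 encodes a membrane protein with EGF-like repeats that is related to Notch ligands, is shed from the cell surface and holds back adipocyte differentiation. Its tested probe set, 1449939_s_at, had 19.4, 42.6 and 55.4 in the siDNMT1 arrays of repeats 1 to 3, and 34.2, 15.5 and 49.7 in the siNT arrays. The groups overlapped and the repeats went in different directions, with differences of -0.68, 1.21 and 0.14. Their mean was 0.22 (SE 0.42, limma 95% interval -0.70 to 1.15, adjusted p = 0.9997). That interval is wide and takes in values well to either side of 0. Left out one at a time, siDNMT1 array 3 or siNT array 2 turned this mean negative, at -0.05 and -0.17, while it was 0.60 without siDNMT1 array 1, 0.12 without siDNMT1 array 2 and 0.54 without siNT array 3. The other Dlk1 probe set, 1442724_at, had 5.09, 3.13 and 3.48 with siDNMT1 and 5.08, 4.83 and 7.87 with siNT. Those signals lie near or below the pseudocount, and the probe set was not tested.

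Meg3, a spliced nuclear RNA that is studied as a growth suppressor and as a partner of Polycomb proteins, is covered by 11 probe sets. They are not 11 separate measurements: 3 were designed from one source record of the annotation (1428764_at, 1452905_at and 1428765_at), 2 from another (1429257_at and 1429256_at) and 2 from another again (1426758_s_at and 1452183_a_at). The brightest, 1439380_x_at, had 81.1, 60.3 and 52.7 in siDNMT1 repeats 1 to 3 and 76.6, 61.0 and 51.7 in siNT repeats 1 to 3. Same-numbered arrays were close to each other here and the repeats were further apart than the groups. The difference was 0.03 (SE 0.24, limma 95% interval -0.50 to 0.56, adjusted p = 0.9997). Its ID ends in _x_at, a mark for probes that may also match other transcripts. Probe sets ending in _x_at or _s_at were left out together as an alternative, which removes Meg3 1426758_s_at and the only tested one of Dlk1. The 10 members left had a median difference of 0.22 and 0 calls.

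Groups without overlap were seen for 1 Meg3 probe set, 1452905_at. Its siDNMT1 signals were 24.1, 31.2 and 25.4 and its siNT signals 23.9, 21.7 and 22.0, so every siDNMT1 array lay above every siNT array, the closest pair by a narrow margin. The difference was 0.20 (SE 0.30, adjusted p = 0.9997 by limma), and 0.11 without siDNMT1 array 2. Groups parted upwards in 1 of the 13 tested members against 2.96% over the array, and downwards in 0 of 13 against 5.78%. The brighter probe set from the same source record, 1428764_at, had 59.1, 54.1 and 59.8 with siDNMT1 and 59.8, 34.9 and 47.9 with siNT. There the siDNMT1 arrays were close together and siNT array 1 was as bright as they were, and the difference was 0.28 (SE 0.24, limma 95% interval -0.25 to 0.81). It was 0.096 without siNT array 2 and 0.44 without siNT array 1. The dim one of that record, 1428765_at, was not tested and ran at 22.6, 17.0 and 2.40 with siDNMT1 against 15.0, 2.46 and 18.9 with siNT.

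The largest Meg3 difference among those tested was on 1436057_at, with 38.0, 23.7 and 25.9 in siDNMT1 arrays and 29.2, 22.0 and 10.8 in siNT arrays. It was above 0 in each repeat, at 0.33, 0.09 and 0.96, with a mean of 0.46 (SE 0.38, limma 95% interval -0.37 to 1.29). The low siNT array 3 carried most of it: the mean was 0.15 without that array. It was 0.28, 0.57 and 0.52 without siDNMT1 arrays 1, 2 and 3, and 0.699 and 0.53 without siNT arrays 1 and 2. Together with 1452905_at, 2 of the 13 tested members were higher in 3 of 3 repeats, against 10.1% over the array, and 0 were lower in 3 of 3, against 19.2%.

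Other Meg3 probe sets lay at or below 0. On 1429257_at the siDNMT1 arrays had 26.9, 42.3 and 43.6 and the siNT arrays 12.1, 62.0 and 74.3. Repeat 1 was thus higher with siDNMT1 and repeats 2 and 3 lower (0.88, -0.50 and -0.70), for a mean of -0.11 (SE 0.49). Its partner from the same record, 1429256_at, had a narrower range of 29.0 to 34.8 with siDNMT1 and 24.98 to 37.6 with siNT, and differed by -0.01 (SE 0.28). The repeats had the same order of signs on both. Probe set 1426758_s_at had 50.1, 28.7 and 75.8 with siDNMT1 and 51.6, 39.8 and 55.9 with siNT, a difference of -0.01 (SE 0.31). Of the 7 tested Meg3 probe sets 4 were above and 3 below 0, with a median of 0.03. The 3 negative values and that of 1439380_x_at changed sign when single arrays were left out, and 1429256_at and 1426758_s_at also under each other scaling.

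The Meg3 probe sets below the filter gave no common direction. 1452183_a_at, nearest to the limit from below with a mean of 15.8, had 33.7, 9.42 and 15.8 with siDNMT1 and 16.1, 5.37 and 14.4 with siNT, higher in 3 of 3 repeats and overlapping between groups. Just inside the limit, among all members, was Rian 1427580_a_at with a mean of 21.2. 1452906_at and 1436713_s_at had mean signals of 6.89 and 1.67, close to and below the pseudocount. With no filter, the differences of the 4 dim Meg3 probe sets were 0.48, 0.11, 0.34 and -0.28, and their limma adjusted p was 0.9996.

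**Figure D2:**
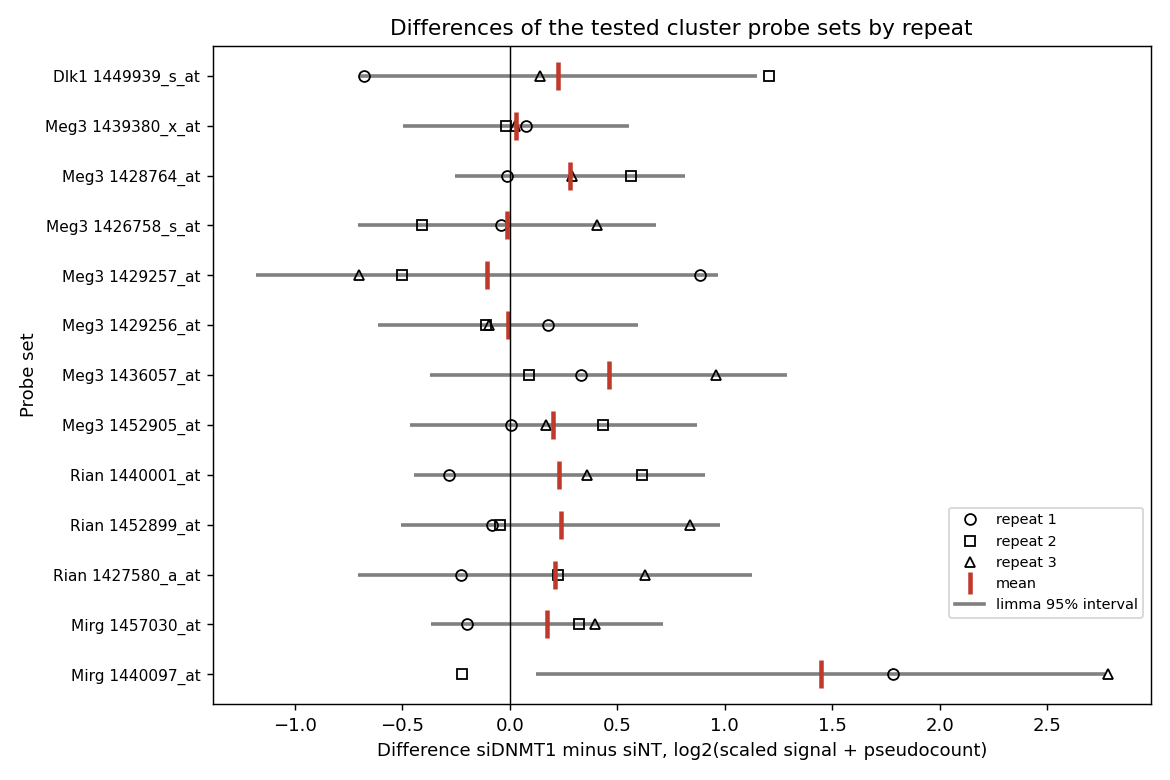
Difference siDNMT1 minus siNT on the log2(scaled signal + pseudocount) scale for the 13 tested cluster probe sets; open symbols are the 3 repeats, the red tick is their mean and the grey bar the 95% interval of the limma fit. The bars are from the fit without the block. Of the 13 bars 12 cross 0. That of Mirg 1440097_at runs from 0.12 to 2.77 while its repeat 2 lies at -0.22.

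Rian is a long RNA whose introns hold C/D small nucleolar RNAs, guides for ribose methylation, and miRNAs. In the RefSeq gene table its span contains 11 snoRNA and 3 miRNA genes, and none of these has a probe set of its own. Probe set 1440001_at had 34.3, 32.9 and 36.1 in siDNMT1 arrays and 42.9, 19.6 and 27.0 in siNT arrays. The siDNMT1 arrays were nearly equal and lay inside the siNT range. Its difference was 0.23 (SE 0.31, limma 95% interval -0.45 to 0.91), but 0.0095 without siNT array 2 and 0.49 without siNT array 1. For 1452899_at the siDNMT1 signals were 20.6, 29.0 and 33.7 and the siNT signals 22.1, 30.1 and 16.5. Only repeat 3 was higher with siDNMT1 (0.84, against -0.08 and -0.05), and the mean was 0.24 (SE 0.34). That mean was 0.066 without siNT array 3 and 0.11 without siDNMT1 array 3, and 0.40 without siDNMT1 array 1 and 0.42 without siNT array 2.

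The third tested Rian probe set, 1427580_a_at, had 28.4, 17.6 and 21.0 with siDNMT1 and 34.1, 14.3 and 11.7 with siNT. Its difference of 0.21 (SE 0.42) became -0.03 without siNT array 3. It was 0.058 without siDNMT1 array 1 and 0.075 without siNT array 2, and 0.34 without siDNMT1 array 2 and 0.58 without siNT array 1. With all arrays the 3 tested Rian probe sets stood at 0.21 to 0.24, each with repeat 1 below 0 and repeat 3 above 0, and single arrays set the size of all 3. The standard error exceeded the difference on each. The remaining one, 1428055_at, had 12.1, 3.06 and 3.04 with siDNMT1 and 2.92, 4.89 and 1.59 with siNT and was too dim to be tested.

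Mirg is the host transcript of a large miRNA group at the far end of the maternally read unit. Within its own span the RefSeq table lists 10 miRNA genes, and from the start of Meg3 to the end of Mirg 60 miRNA and 19 snoRNA genes, of which 0 have a probe set named for them alone. Its brighter probe set, 1457030_at, had 36.3, 54.3 and 56.8 in siDNMT1 arrays and 42.4, 42.4 and 41.8 in siNT arrays. The siNT arrays were almost identical, and siDNMT1 array 1 lay below them and arrays 2 and 3 above. The difference was 0.17 (SE 0.25, limma 95% interval -0.37 to 0.71, adjusted p = 0.9997). It was 0.36 without siDNMT1 array 1, and 0.098 and 0.068 without siDNMT1 arrays 2 and 3.

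The other Mirg probe set, 1440097_at, had the largest difference of the cluster. Its signals were 43.1, 50.2 and 51.6 in the siDNMT1 arrays of repeats 1 to 3, and 8.78, 59.4 and 2.98 in the siNT arrays. SiNT arrays 1 and 3 were thus far below all others, and siNT array 2 was the brightest of the 6. The repeats differed by 1.78, -0.22 and 2.78, with a mean of 1.45 (SE 0.60, limma unadjusted p = 0.0348, adjusted p = 0.9997). In the fit with the block the unadjusted limma p was 0.00996 and the adjusted p 0.473. Single siNT arrays set its size: it was 2.31 without siNT array 2 and 0.82 without siNT array 3 (adjusted p = 0.613 and 0.9997 by limma). The choice of pseudocount did so as well, with 1.89 at a pseudocount of 1 and 0.66 at 32. The 2 Mirg probe sets did not show the same pattern: in repeat 1 they went in opposite directions, and again in repeat 2.

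Dio3, the deiodinase that inactivates thyroid hormone, had no probe set to itself, and only its antisense neighbour Dio3os, which is no member, could be followed. Its probe set had 56.7, 55.2 and 43.9 with siDNMT1 and 16.4, 74.6 and 72.6 with siNT. SiNT array 1 was low and siNT arrays 2 and 3 were the highest, as on Meg3 1429257_at. The difference was 0.15 (SE 0.43, adjusted p = 0.9997 by limma).

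The members were set beside the genes around them. Of 106 genes that the RefSeq table places from Begain to Dio3, 6 had a probe set of their own: Dlk1, Meg3, Rian, Mirg, Dio3os and the untested 3110009F21Rik. Neither Begain nor Rtl1 had one. On each side the 10 nearest protein-coding genes with a probe set were taken, each by its brightest. Upstream, 9 were tested, 3 higher and 6 lower with siDNMT1, with a median of -0.02. Beyond Dio3, 8 were tested, 2 higher and 6 lower, with a median of -0.16. None of the 17 was called with or without the block. Wars, the tryptophanyl-tRNA synthetase gene, had the lowest value, at 411, 377 and 411 with siDNMT1 and 526, 581 and 498 with siNT. Its groups did not overlap, and the difference was -0.41 (SE 0.15, limma adjusted p = 0.9997). The groups also parted downwards for Cyp46a1, Slc25a47 and Cinp, and upwards for none of the tested flanking genes. Over the array, 5.78% parted downwards and 2.96% upwards. Hhipl1 had the highest value, at 0.41 (SE 0.32), with overlapping groups. Yy1, a zinc finger factor gene, differed by 0.11 (SE 0.19).

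**Figure D3:**
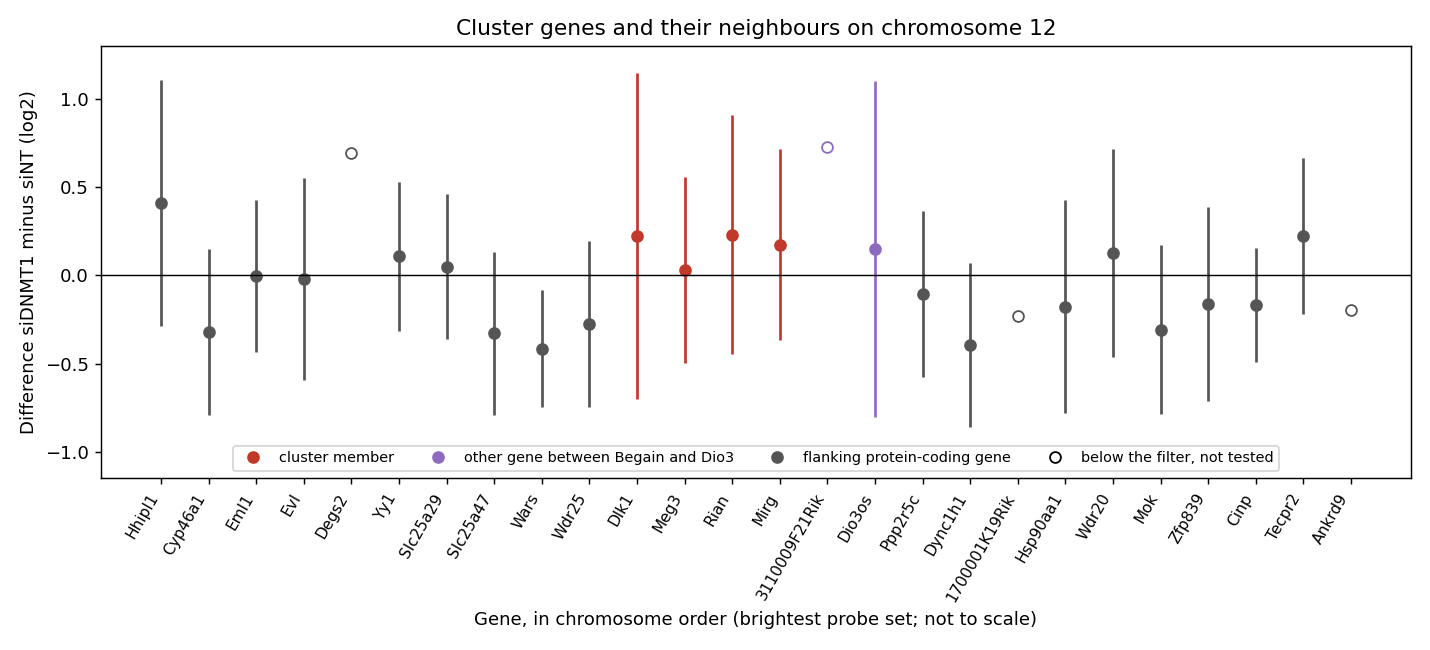
Difference siDNMT1 minus siNT (log2) of the brightest probe set of each gene, in chromosome order and not to scale, with limma 95% intervals; cluster members are red, Dio3os and 3110009F21Rik violet, flanking protein-coding genes grey, and open symbols were too dim to be tested. The 4 members lie between 0.03 and 0.23 with intervals across 0, and the tested flanking genes between -0.41 and 0.41.

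Gene lists that touch the members' functions were described in the same fit, by the brightest probe set of each gene. Over all tested probe sets the median was -0.06, and no member of any of these lists was called with or without the block. Among 28 tested genes of Dlk1 shedding and the Notch pathway, 15 were higher and 13 lower with siDNMT1 (median 0.01). The receptor gene Notch2 differed by 0.65 (SE 0.26), with 59.4, 77.4 and 61.2 against 32.5, 56.7 and 33.9. Hes1, a Notch target that encodes a repressor, differed by -0.51 (SE 0.21) and the Notch ligand gene Dner by 0.35 (SE 0.23). Of 16 genes of thyroid hormone activation, transport and response, 5 were higher and 11 lower (median -0.10). The activating deiodinase gene Dio1 was at 0.44 (SE 0.25), the lipogenic target gene Thrsp at -0.30 (SE 0.20) and the transporter gene Slc7a5 at -0.20 (SE 0.15).

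A list of factors that set, keep, read or remove DNA methylation, with chromatin factors beside them, had 9 higher and 11 lower of 20 tested (median -0.01). The chromatin remodeller Hells was at -0.43 (SE 0.28), the dioxygenase Tet1 at 0.41 (SE 0.29) and the histone methyltransferase Setdb1 at -0.22 (SE 0.18). Zfp57, which protects imprints in the early embryo, was too dim to be tested. Of 13 genes that process miRNAs and C/D snoRNAs 4 were higher and 9 lower (median -0.06). Ago2, the slicer of RNA interference, was at 487, 453 and 578 with siDNMT1 against 646, 1041 and 795 with siNT, a difference of -0.68 (SE 0.19, limma adjusted p = 0.9997). Ago3 was at 0.56 (SE 0.27) and Dgcr8, the partner of Drosha, at -0.35 (SE 0.29).

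Polycomb and p53 genes that have been studied with Meg3 were 3 higher and 3 lower of 6 tested (median 0.00), with Mdm2 at 0.22 (SE 0.23), Suz12 at -0.15 (SE 0.30) and Cdkn1a at 0.09 (SE 0.14). Imprinted genes outside chromosome 12 were 10 higher and 15 lower of 25 tested (median -0.07). The cluster's count of 10 higher and 3 lower is of 13 probe sets, 7 of them of Meg3, and is not set against this count of genes. By the brightest probe set, Dlk1, Meg3, Rian and Mirg were at 0.22, 0.03, 0.23 and 0.17. The intronic retrogene Nap1l5 had 120, 175 and 154 with siDNMT1 and 444, 380 and 229 with siNT, without overlap. Its difference was -1.16 (SE 0.25), with a limma adjusted p of 0.573 and of 0.0958 with the block. Ndn of the Prader-Willi region was at -0.94 (SE 0.36) and Ddc at 0.53 (SE 0.27).

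**Figure D4:**
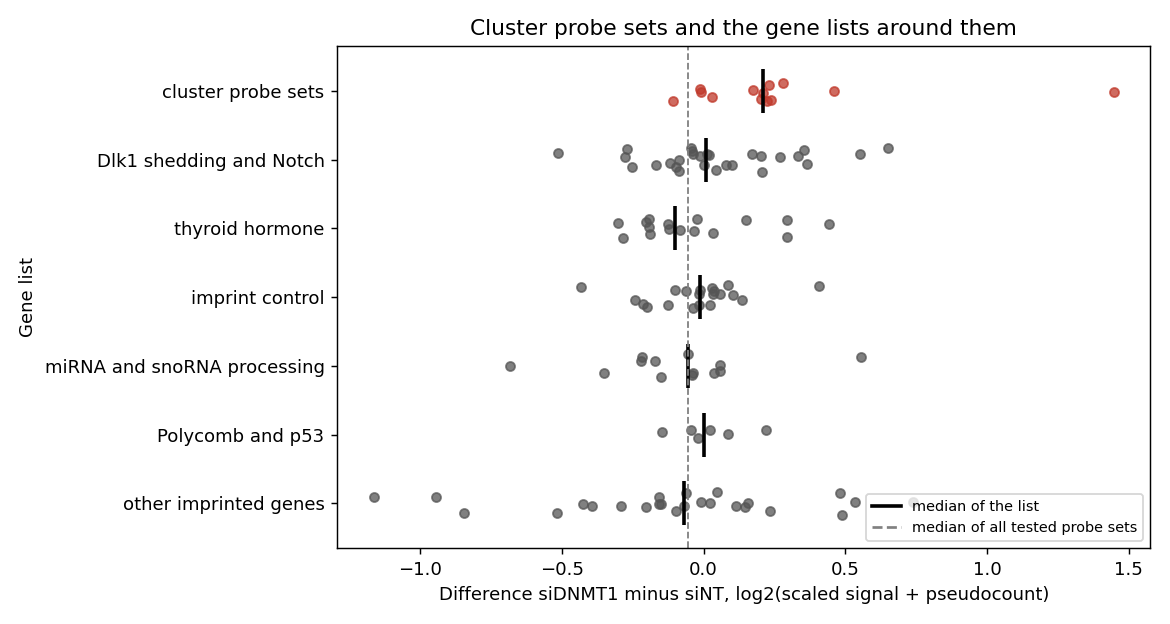
Differences siDNMT1 minus siNT on the log2(scaled signal + pseudocount) scale; each point is a tested cluster probe set (red) or the brightest tested probe set of a listed gene (grey), black bars are list medians and the dashed line is the median of all tested probe sets. The cluster median, over probe sets rather than genes, is 0.21, and the medians of the other lists run from -0.10 to 0.01.

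Pomc, the precursor gene of ACTH, was bright in both groups, with 10470, 5576 and 9282 for siDNMT1 and 10538, 6958 and 10191 for siNT. Of 9 measured corticotroph markers 8 passed the filter, Avpr1b being the exception. So did 9 of 16 measured markers of other pituitary cells and stroma, and passing does not decide which genes are transcribed. Among the corticotroph markers, Crhr1, Neurod1 and Pitx1 had the smallest unadjusted limma p. Crhr1, the receptor gene for corticotropin-releasing hormone, was at -0.36 (SE 0.20). The transcription factor genes Neurod1 and Pitx1 were at -0.35 (SE 0.20) and 0.13 (SE 0.17). Pomc was named in addition and not by its p, and differed by -0.15 (SE 0.23). The summed signals of the corticotroph markers were 8731 to 13732 with siDNMT1 and 10132 to 13752 with siNT. Pomc alone made up most of each of these sums. Markers of other pituitary cells and stroma summed to 299 to 475 with siDNMT1 and 320 to 440 with siNT over 16 genes, of which 7, including Cga, Pecam1 and Ptprc, were too dim to be tested. Among the tested ones, the prolactin gene Prl was at -0.91 (SE 0.45), the growth hormone gene Gh at 0.44 (SE 0.32) and the stem cell factor gene Sox9 at -0.19 (SE 0.41). The part of either marker list in the members' values was not tested.

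Lastly, the genes whose log2 values ran most like those of each member's brightest tested probe set over the 6 arrays were listed by Pearson r, as a description with no p. For Dlk1 these were Nat2 (r = 0.996), Elmo1 (0.993) and Dppa3 (0.991), and for Meg3 Nup188 (0.993), Cox10 (0.991) and Aacs (0.991). For Rian they were Themis2 (0.986), Rdh5 (0.986) and Sprr3 (0.985), and for Mirg Myoz1 (0.982), Dera (0.975) and Pramel6 (0.970). No member was among the 3 nearest genes of another. The 6 arrays share repeats and few points enter each r. Of 22812 to 22818 candidates, 104 exceeded 0.9 for Dlk1, 164 for Meg3, 85 for Rian and 66 for Mirg.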

How the data were processed

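Transcript levels were measured in AtT-20 cells on 3 siDNMT1 and 3 siNT arrays. The deposited table holds 1 linear intensity for each of 45101 probe sets and array, made by the authors with GCOS, per the submitters' processing notes. What version and scaling target were used is not given in the sources used here, and the table has no detection calls. The 64 control probe sets were left out, and no 2 arrays were identical.

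Each array was scaled to a common median log2 value. limma 3.58.1 in R 4.3.3 (lmFit, eBayes with trend, two-sided) compared the groups over 27022 probe sets on log2(scaled signal + pseudocount), and 18015 dimmer ones were left out. Symbols came from a platform annotation: 34945 probe sets had 1 symbol, 932 several and 9160 none. RefSeq of GRCm38.p6 served for gene order and promoter windows only. Every member probe set was named, and of each list up to 3 genes with the smallest unadjusted p, since none was called. Pomc, Zfp57, Avpr1b, Cga, Pecam1 and Ptprc were named in addition, after their values were seen. The labels describe independent repeats. Deviations from the group means correlated between arrays of the same number (0.173, 0.231 and 0.257 in repeats 1 to 3), so the numbers pair the arrays. The main fit does not use that pairing. SEs and intervals are from this fit unless the block is named, and the block can change them, as for Meg3 1439380_x_at (SE 0.24 without it, 0.20 with it). Members and lists were chosen with earlier results of these data known.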

Additional observations from a re-analysis of the deposited data

How the results depend on the processing

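The 13 tested members gave 0 calls under each of the 20 alternatives run, the fit with the replicate block included. Their median difference was 0.21 and stayed above 0 throughout, from 0.03 with the stricter filter, which leaves fewer members, to 0.40 in the paired fit without repeat 1. Of 239 single-member values under alternatives, 209 kept their direction and 30 did not. The 30 were on probe sets with main differences from -0.11 to 0.24. Among these were Dlk1 1449939_s_at (0.22) and Rian 1452899_at (0.24) and 1427580_a_at (0.21), which lie at or above the cluster median. Dim signals limit these values, and the cause of the sign changes was not tested.

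By setting, Meg3 1426758_s_at and 1429256_at turned to 0.043 and 0.046 with trimmed mean scaling, 0.025 and 0.0099 with quantile normalization and 0.0073 and 0.014 without scaling, and 1426758_s_at to 0.0091 with a pseudocount of 32. Leaving out 1 array at a time without the block gave -0.17 to 0.598 for Dlk1 1449939_s_at, and for Meg3 -0.13 to 0.17 on 1439380_x_at, -0.31 to 0.31 on 1426758_s_at, -0.80 to 0.299 on 1429257_at and -0.17 to 0.084 on 1429256_at. For Rian 1427580_a_at it gave -0.026 to 0.58. In the paired fit without repeat 1, Meg3 1426758_s_at was at 0.00040. Without repeat 2, Dlk1 1449939_s_at was at -0.27 and Meg3 1426758_s_at, 1429257_at and 1429256_at at 0.18, 0.0904 and 0.041. Without repeat 3, Meg3 1429257_at and 1429256_at were at 0.19 and 0.035 and Rian 1452899_at and 1427580_a_at at -0.065 and -7.3e-05.

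Over the array, 0 probe sets were called without the block and 23 with the replicate block. Trimmed mean scaling, quantile normalization, a pseudocount of 32 and the stricter filter each gave 1, no scaling gave 2, and leaving out 1 array gave 0 to 4. Paired fits without repeats 1, 2 and 3 gave 41, 34 and 266. The Dnmt1 difference of -1.54 passed the threshold with the replicate block and, at -1.65, -1.17 and -1.79, in the paired fits without repeats 1, 2 and 3. Leaving out 1 array without the block gave -1.79 to -1.26, past the threshold only without siDNMT1 array 3. The block changed no call of a member, a neighbour or a listed gene.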
